A study of Mus musculus with 2 samples.

Results

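The 10 genes of serine synthesis and one-carbon metabolism described here are Phgdh, Psat1, Psph, Shmt1, Shmt2, Mthfd1, Mthfd2, Mthfd1l, Aldh1l1 and Gldc, and they were followed across the cell types of the young mouse dentate gyrus. They were chosen by name as members of 1 pathway, and all 10 were found among the 32285 genes of the deposited matrix. The dentate gyrus is the part of the hippocampus where new granule neurons arise from stem cells into adult life, and its cells were dissociated on postnatal day 30 for 3' droplet single-cell RNA sequencing. The conditional knockout (cKO) was Nestin-Cre Tg, Phf2flox/flox and the control was Nestin-Cre Tg, Phf2+/+, with 4 mice per genotype and 1 sample of each genotype. Both genotypes carried the same transgene (strain B6.Cg-Tg(Nes-cre)1Kln/J), so no animal was free of Cre. The Nestin elements of this transgene drive Cre in neural progenitors and so reach their neuronal and glial descendants, while microglia come from another lineage. The barcodes separated 2 libraries that no label ties to a genotype, so no comparison of cKO with control was made, and every value is given for library 1 and library 2.

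The de novo serine pathway branches from glycolysis at 3-phosphoglycerate, and its 3 enzymes Phgdh, Psat1 and Psph act one after the other. Serine hydroxymethyltransferases then split serine into glycine and a one-carbon unit carried by folate, and the folate enzymes pass that unit to purine, thymidylate and methionine synthesis in the cytosol and mitochondria. In the brain, serine synthesis is known chiefly from astrocytes and other glia, and the mitochondrial folate enzyme Mthfd2 is known from dividing cells.

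After filtering, 8025 cells of library 1 and 8121 of library 2 remained, with medians of 8080 and 7227 unique molecular identifiers (UMIs) per cell, and 22 barcode sequences occurred in both. Cells were grouped into 18 classes named from marker genes, none of which was one of the 10 genes, and the 10 genes were left out of the clustering. Levels are CPM, the UMIs of a gene scaled to the same total of UMIs in every class, with exact Poisson 95% intervals that cover counting error only. UMIs of the 10 genes over all classes ranged from 456 for Mthfd1l to 21853 for Phgdh. Differences between classes were tested with edgeR's quasi-likelihood test on sums per library and class, with Benjamini-Hochberg adjustment over 15746 genes and a threshold of 0.05. Each class gave 2 sums, so the p-values rest on how far class differences varied between the 2 libraries, pooled over 17 classes, and not between mice. Since no label ties a library to a genotype, that spread may include a difference between genotypes. Levels in CPM cannot tell less RNA of a gene per cell from fewer expressing cells in a class. The classes most used here were radial glia-like stem cells (RGL-like, 556 and 792 cells), astrocyte-like cells (918 and 924), progenitors in S phase (131 and 129) and in G2/M (195 and 192), together called dividing, and neuronal intermediate progenitors (nIPC-like, 409 and 321), called non-dividing. The nIPC-like class is 1 cluster whose markers of neuroblasts, the young neurons that follow, scored higher (3.95, a mean log2 level against the mean over clusters) than its nIPC markers (2.88), and its leading genes held markers of both, with Eomes, Tac2 and Elavl2 of the nIPC list beside Dcx, Sox11 and Igfbpl1 of the neuroblast list. It was given the nIPC name because more nIPC than neuroblast markers were at their highest level there. The RGL-like clusters also scored nearly as high for astrocyte markers as for RGL markers. The larger (1120 cells) scored 2.93 for RGL and 2.71 for astrocyte markers, and the smaller (228 cells) 2.62 and 2.28.

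**Figure D1:**
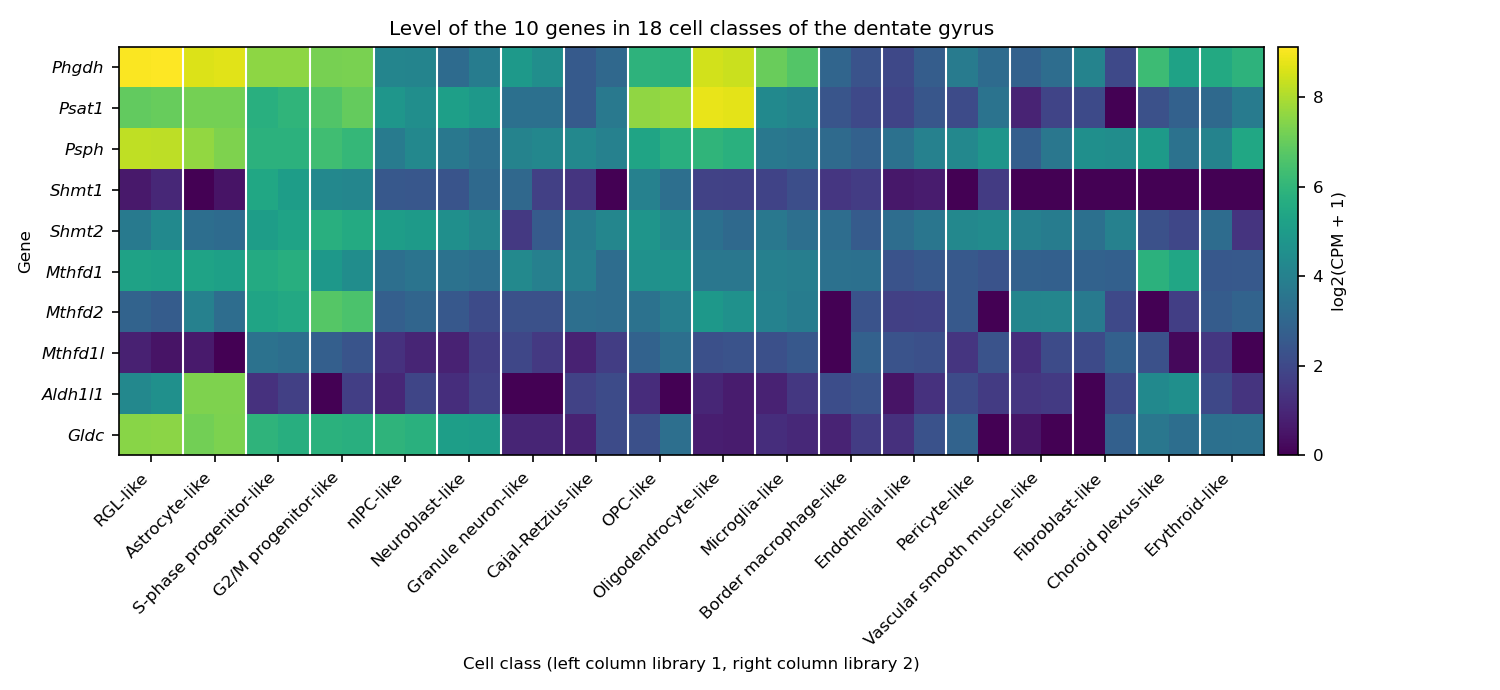
Levels of the 10 genes (rows) as log2(CPM + 1) in 18 cell classes, with library 1 in the left and library 2 in the right column of each class. Phgdh was highest in RGL-like cells at 528 and 553 CPM, Psat1 in Oligodendrocyte-like cells at 447 and 431 CPM, and Aldh1l1 in Astrocyte-like cells at 162 and 163 CPM.

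The genes did not share one pattern, and 4 of their promoters are shown because the genes were highest in CPM in different classes. Phgdh was highest in RGL-like cells, Aldh1l1 in Astrocyte-like cells, Shmt1 in S phase and Mthfd2 in G2/M. For Phgdh, the lead over Astrocyte-like cells was not called by edgeR. Each stretch holds the 150 bases before the RefSeq start in GRCm38.p6, written 5' to 3' on the strand of the gene. They lie at chr3:98339970-98340119 on the minus strand (Phgdh), chr6:90550643-90550792 on the plus strand (Aldh1l1), chr11:60811266-60811415 on the minus strand (Shmt1) and chr6:83317605-83317754 on the minus strand (Mthfd2). Capitals mark CCAAT, the box bound by NF-Y, and GGGCGG, the GC box, on either strand, so that ATTGG is CCAAT read on the other strand.
Phgdh: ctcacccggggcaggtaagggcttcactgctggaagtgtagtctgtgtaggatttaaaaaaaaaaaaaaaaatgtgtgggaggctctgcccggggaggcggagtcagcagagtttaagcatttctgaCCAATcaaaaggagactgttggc
Aldh1l1: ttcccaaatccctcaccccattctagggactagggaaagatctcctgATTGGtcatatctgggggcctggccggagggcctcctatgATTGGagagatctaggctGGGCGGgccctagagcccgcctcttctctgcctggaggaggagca
Shmt1: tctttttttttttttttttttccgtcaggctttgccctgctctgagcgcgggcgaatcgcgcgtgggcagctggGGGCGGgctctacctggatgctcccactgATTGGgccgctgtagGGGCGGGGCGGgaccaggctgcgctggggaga
Mthfd2: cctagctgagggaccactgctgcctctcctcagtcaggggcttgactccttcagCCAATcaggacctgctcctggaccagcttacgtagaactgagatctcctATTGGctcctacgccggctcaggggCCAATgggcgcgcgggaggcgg

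All 10 genes had an entry in the RefSeq promoter table, with 11 windows because Psat1 has 2 starts. Among the 250 bases before each start, CCAAT was found in 8 of 11 windows, against 33.8% of all 32851 windows of that length, and the windows of Shmt2, Mthfd1l and 1 of those of Psat1 held none. GGGCGG was found in 7 of 11 windows, against 32.7% of all windows. Both boxes occurred in windows of genes with different peaks. None of the 11 windows held TGATGNAA, the core of the element bound by ATF4 with a C/EBP factor, which 3.45% of all windows held. The same was true of CACGTG, the E-box bound by Myc (6.02% of all windows), and of TTTCCCGC and TTTGGCGC, spellings of the E2F site (0.895% and 0.417%). In Shmt1, 2 GGGCGG boxes overlap each other, and no other motif searched overlaps another in the stretches shown. A match describes letters and not a bound site, and these windows leave out distant elements. The windows of Aldh1l1, Mthfd2, Shmt1 and Psat1 lie wholly inside the gene spans given with each gene, which reach further upstream than the RefSeq start used.

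Phgdh (chr3:98313170-98339990, minus strand, mm10) encodes phosphoglycerate dehydrogenase, the first and committed enzyme of the pathway. RGL-like cells had 528 CPM (505 to 552) and 553 CPM (533 to 575), Astrocyte-like cells 399 and 419 CPM and Oligodendrocyte-like cells 360 and 336 CPM. The counting intervals of these neighbours did not overlap in either library. Progenitors in S phase followed with 187 and 191 CPM, those in G2/M with 150 and 154 CPM, and Microglia-like cells with 129 and 102 CPM. Below them, nIPC-like cells had 16.6 and 16.3 CPM, Neuroblast-like cells, the young neurons that follow, 8.02 and 13.3 CPM, and Granule neuron-like cells 29.0 and 21.6 CPM. Endothelial-like cells were lowest with 2.96 and 5.44 CPM. Both libraries gave the same first 6 classes in the same order. By edgeR, whose scaling differs from CPM, Phgdh was not called between RGL-like and Astrocyte-like cells (log2 difference 0.04 ± 0.20 SE). Nor was it called between Astrocyte-like and Oligodendrocyte-like cells (0.20 ± 0.20).

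Psat1 (chr19:15904678-15947337, minus strand), the transaminase of the second step, was ordered differently. Oligodendrocyte-like cells led with 447 CPM (432 to 463) and 431 CPM (417 to 446). The OPC-like cells, named for the precursors of that lineage, followed with 194 and 207 CPM. Astrocyte-like cells had 149 and 147 CPM, RGL-like cells 120 and 128 CPM and G2/M progenitors 99.8 and 122 CPM, and the intervals of these 3 neighbours overlapped in at least 1 library. Progenitors in S phase had 52.8 and 60.8 CPM, Neuroblast-like cells 34.0 and 27.9 CPM and nIPC-like cells 26.7 and 21.9 CPM. Phgdh was lower in OPC-like cells, at 58.4 and 56.4 CPM, than in Oligodendrocyte-like cells, with intervals that did not overlap, as was Psat1. The OPC-like cluster scored nearly as high for markers of premyelinating oligodendrocytes (4.86) as for those of OPCs (4.97). In a finer clustering, 102 cells were named premyelinating oligodendrocytes and 83 were named OPCs.

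Psph (chr5:129765558-129787449, minus strand), the phosphatase that releases serine in the last step, was highest in RGL-like cells with 299 CPM (282 to 317) and 298 CPM (283 to 314). Astrocyte-like cells had 200 and 162 CPM, G2/M progenitors 77.9 and 66.0 CPM, Oligodendrocyte-like cells 61.0 and 53.9 CPM and S-phase progenitors 57.7 and 56.8 CPM. All other classes had at most 52.3 CPM, with nIPC-like cells at 12.9 and 17.9 CPM. By edgeR, the difference in Psph between RGL-like and Astrocyte-like cells was not called (log2 0.35 ± 0.23).

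Within RGL-like and Astrocyte-like cells, Phgdh and Psph were higher in the cluster of shallow cells. In RGL-like cells the shallow cluster had 867 and 849 CPM of Phgdh and 472 and 424 CPM of Psph, and the deeper cluster had 509 and 536 CPM of Phgdh and 289 and 291 CPM of Psph. In Astrocyte-like cells the shallow cluster had 645 and 829 CPM of Phgdh, and the deeper cluster 356 and 379 CPM. The shallow clusters had median depths of 1792.5 and 1795 UMIs with 12.8% and 13.9% of UMIs from mitochondrial genes, whereas the deeper clusters had 7133.5 and 6564 UMIs with 6.91% and 9.67%. Psat1 and Gldc did not share this in RGL-like cells, where Gldc stood at 193 and 181 CPM in the shallow and at 178 and 183 CPM in the deeper cluster.

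Shmt1 (chr11:60788104-60811718, minus strand), the cytosolic enzyme, was a low-count gene with its highest levels in dividing progenitors. S-phase progenitors had 42.6 CPM (34.2 to 52.5) and 33.0 CPM (25 to 42.8), G2/M progenitors had 18 CPM (13.6 to 23.4) and 17.2 CPM (12.9 to 22.5), and these intervals did not overlap. OPC-like cells followed with 14.9 CPM (7.71 to 26.1) and 8.99 CPM (4.49 to 16.1), and these intervals overlapped those of G2/M in both libraries. RGL-like cells held 2 and 5 UMIs (0.537 and 1.01 CPM) and Astrocyte-like cells 0 and 2 UMIs. Astrocyte-like cells of library 1, where none was seen, had an interval of 0 to 0.729 CPM, and 3 counts there would be 0.593 CPM.

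Shmt2 (chr10:127517123-127522444, minus strand), the mitochondrial enzyme, was spread more evenly. G2/M progenitors had 53.1 and 46.3 CPM, S-phase progenitors 32.9 and 37.6 CPM and nIPC-like cells 32.5 and 30.5 CPM. The intervals of G2/M and S phase overlapped in library 2 and not in library 1, and those of S phase and nIPC-like cells overlapped in both libraries. Neuroblast-like cells had 22.2 and 17.2 CPM, RGL-like cells 12.6 and 19.1 CPM, Astrocyte-like cells 8.90 and 8.10 CPM and Granule neuron-like cells 1.87 and 5.17 CPM.

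Mthfd1 (chr12:76255298-76319803, plus strand), the trifunctional enzyme of the cytosol, had 46.5 and 51.5 CPM in S-phase progenitors and 56.5 and 41.0 CPM in Choroid plexus-like cells. Astrocyte-like cells (37.8 and 35.7 CPM) and RGL-like cells (36.8 and 35.6 CPM) stood next, and the intervals of neighbours in this order overlapped in at least 1 library. Choroid plexus-like cells of library 1 numbered 29 and held 15 Mthfd1 UMIs. G2/M progenitors had 28.0 and 21.4 CPM and nIPC-like cells 9.04 and 10.5 CPM.

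Mthfd2 (chr6:83305691-83325908, minus strand), the mitochondrial methylenetetrahydrofolate dehydrogenase, was highest in G2/M progenitors with 105 CPM (93.6 to 117) and 91.6 CPM (81.3 to 103). S-phase progenitors had 39.2 CPM (31.2 to 48.8) and 44.0 CPM (34.7 to 55.1), so G2/M lay above S phase in both libraries, the reverse of Shmt1. Oligodendrocyte-like cells had 27.7 and 23.4 CPM, RGL-like cells 6.44 and 5.23 CPM and nIPC-like cells 5.75 and 6.78 CPM.

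Mthfd1l (chr10:3973118-4167081, plus strand), the mitochondrial formate-releasing enzyme, was scarce everywhere. S-phase progenitors had 9.69 CPM (5.92 to 15) and 8.69 CPM (4.86 to 14.3) and OPC-like cells 6.22 and 8.99 CPM, so S phase stood first in library 1 and OPC-like cells in library 2, with overlapping intervals. Neighbours in the order of its mean levels overlapped in at least 1 library. RGL-like cells held 3 and 2 UMIs.

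Aldh1l1 (chr6:90486427-90600203, plus strand), formyltetrahydrofolate dehydrogenase and a widely used astrocyte marker, had 162 CPM (151 to 174) and 163 CPM (152 to 174) in Astrocyte-like cells. RGL-like cells had 18.2 and 22.9 CPM and Choroid plexus-like cells 18.8 and 22.3 CPM. Each of the other 15 classes had at most 4.09 CPM in both libraries.

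Gldc (chr19:30098447-30175429, minus strand), the decarboxylase that opens glycine cleavage, was highest in RGL-like cells with 179 CPM (166 to 193) and 183 CPM (172 to 196), against 145 and 157 CPM in Astrocyte-like cells. By edgeR, that difference was not called (log2 -0.10 ± 0.24, RGL-like minus Astrocyte-like). Gldc stayed at a nearly equal level through the progenitors, with 60.6 and 51.0 CPM in S phase, 55.1 and 52.3 CPM in G2/M and 59.8 and 54.0 CPM in nIPC-like cells. Neuroblast-like cells had 33.8 and 31.8 CPM and Granule neuron-like cells 0.936 and 0.939 CPM. Oligodendrocyte-like cells, which had high levels of Phgdh and Psat1, had 0.700 and 0.632 CPM of Gldc (5 UMIs in each library).

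Smcr8, Ndufa4l2 and Gm15756 are annotated on the opposite strand over the 3' ends of Shmt1, Shmt2 and Aldh1l1 in that order. Gm45901 lies over Aldh1l1 on the same strand, and a pseudogene named Phgdh-ps1 is annotated for Phgdh. The sources used here do not give whether counting used strand, so the levels of Phgdh, Shmt1, Shmt2 and Aldh1l1 are uncertain to the extent that such reads were shared.

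**Figure D2:**
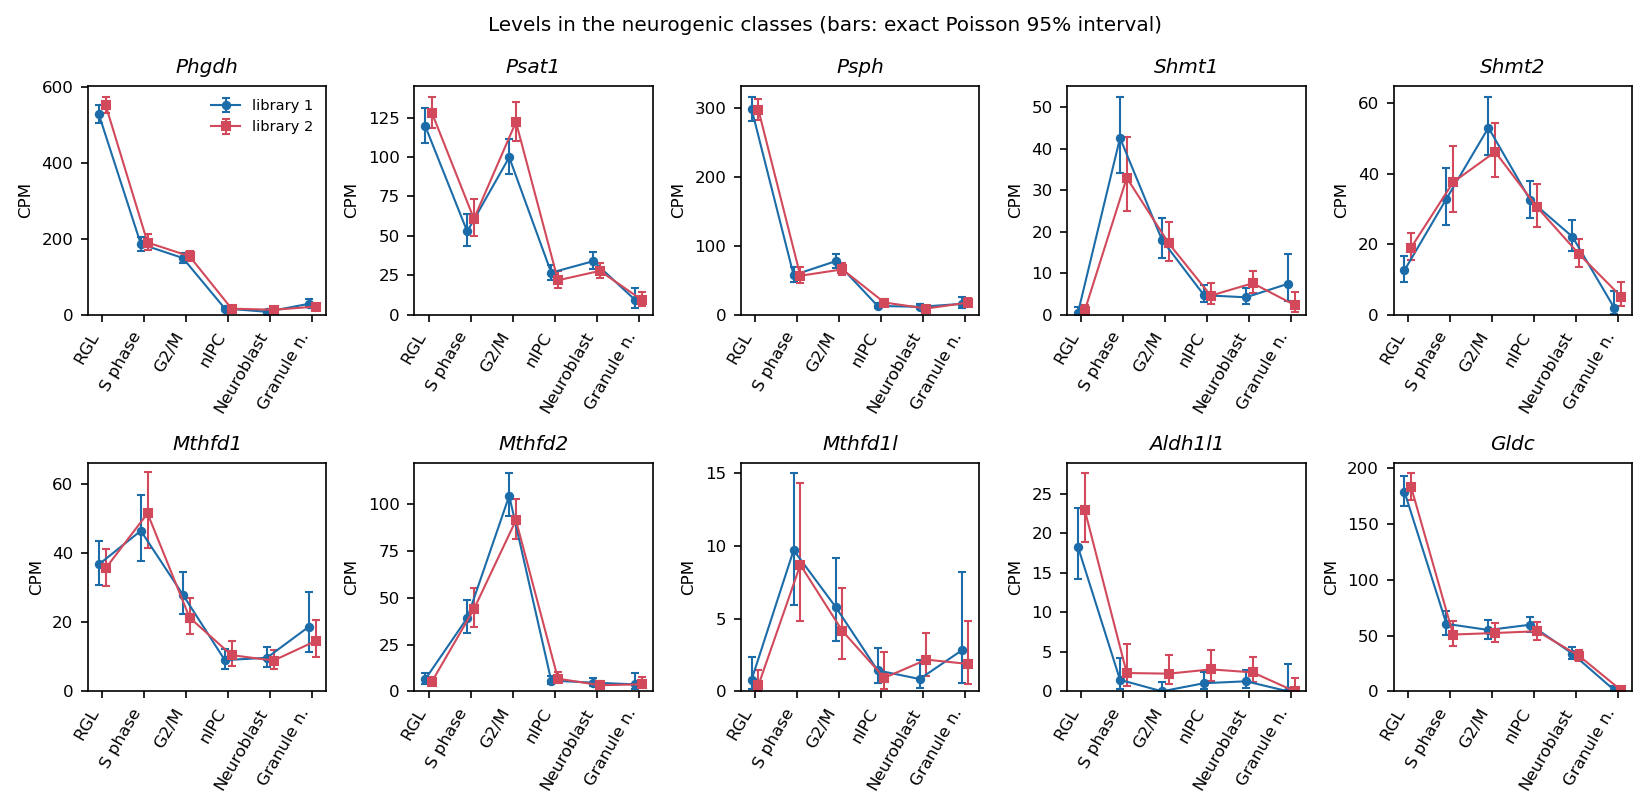
CPM of each gene (vertical axis, from 0, own scale per gene) along the neurogenic classes RGL-like, S-phase, G2/M, nIPC-like, Neuroblast-like and Granule neuron-like, for library 1 (blue circles) and library 2 (red squares), with exact Poisson 95% intervals. Phgdh and Psph started high and were low from nIPC-like cells on, Mthfd2 was highest in G2/M at 105 and 91.6 CPM, and Gldc stayed at 51.0 to 60.6 CPM across the progenitors.

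Dividing progenitors had less Phgdh, Psph, Gldc and Aldh1l1 than RGL-like cells and more Mthfd2, Shmt1, Shmt2 and Mthfd1l. By edgeR, 4 of the 10 genes were higher, against 25.2% of all genes tested, and 4 were lower, against 23.1%. Mthfd2 had 78.5 and 74.7 CPM in dividing progenitors, against 6.44 and 5.23 CPM in RGL-like cells, a 13.3-fold rise (log2 difference 3.73 ± 0.32 SE, edgeR adjusted p = 4.3e-11). Shmt1 had 27.9 and 22.8 CPM, against 0.537 and 1.01 CPM in RGL-like cells (4.94 ± 0.50, adjusted p = 2.4e-09). The size of the Shmt1 difference rests on the 2 and 5 UMIs in RGL-like cells. The groups did not overlap for either gene.

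Phgdh had 164 and 167 CPM in dividing progenitors, against 528 and 553 CPM in RGL-like cells, and was 3.24-fold lower (log2 -1.69 ± 0.21, adjusted p = 1.2e-07). Psph had 69.8 and 62.7 CPM, against 299 and 298 CPM in RGL-like cells (log2 -2.16 ± 0.24, adjusted p = 2.5e-08). Aldh1l1 had 0.580 and 2.26 CPM (3 and 11 UMIs), against 18.2 and 22.9 CPM in RGL-like cells (log2 -3.85 ± 0.39, adjusted p = 1.8e-09). All 3 were lower in both libraries. Of the others, Gldc was 3.29-fold lower, Shmt2 was 2.76-fold higher, and Mthfd1l was called higher with 38 and 28 UMIs, against 3 and 2 UMIs in RGL-like cells.

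Psat1 and Mthfd1 were not called. Psat1 had 81.0 and 100.4 CPM in dividing progenitors and 120 and 128 CPM in RGL-like cells (log2 -0.44 ± 0.21, adjusted p = 0.086), and it was called lower under 7 of the other settings tried. Mthfd1 had 35.4 and 32.1 CPM in dividing progenitors and 36.8 and 35.6 CPM in RGL-like cells (log2 -0.09 ± 0.16). The 12 RGL markers summed to 1447 and 1578 CPM in S phase and 1034 and 1187 CPM in G2/M, against 6013 and 6861 CPM in RGL-like cells and 248 and 272 CPM in nIPC-like cells. Their part in these levels was not tested. Of 20 early response and stress genes, 5 were higher and 1 lower in dividing progenitors, against 25.2% higher and 23.1% lower over all genes. Median depths of dividing progenitors, 16048.5 and 14472 UMIs, exceeded the 6820 and 6402 UMIs of RGL-like cells.

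The 3 serine synthesis enzymes were all low in nIPC-like cells. Phgdh had 16.6 and 16.3 CPM, against 528 and 553 CPM in RGL-like cells, and was 34.1-fold lower (log2 -5.09 ± 0.25, adjusted p = 3.3e-15). Psph had 12.9 and 17.9 CPM, against 299 and 298 CPM (20.4-fold lower, log2 -4.35 ± 0.28, adjusted p = 3.8e-13). Psat1 had 26.7 and 21.9 CPM, against 120 and 128 CPM (5.26-fold lower, log2 -2.39 ± 0.23, adjusted p = 4.7e-10). The values of the 2 classes did not overlap for any of them.

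The folate genes were divided. Mthfd1 had 9.04 and 10.5 CPM in nIPC-like cells, against 36.8 and 35.6 CPM in RGL-like cells (log2 -1.96 ± 0.18, adjusted p = 3.1e-10), and Aldh1l1 had 5 and 9 UMIs, against 68 and 114 UMIs (log2 -3.57 ± 0.40, adjusted p = 7.8e-09). Gldc was 3.31-fold lower. Shmt1 and Shmt2 were higher, Shmt2 with 32.5 and 30.5 CPM in nIPC-like cells, against 12.6 and 19.1 CPM in RGL-like cells (log2 0.90 ± 0.25). With Neuroblast-like cells added to the nIPC-like ones, a grouping chosen after the data were seen, Shmt2 was no longer called (log2 0.59 ± 0.25). Mthfd2 (log2 0.03 ± 0.38) and Mthfd1l were not called. In all, 6 of the 10 genes were lower, against 25.2% of all genes tested, and 2 were higher, against 24.8%. This comparison and the one before share the RGL-like sums. Of the 20 early response genes, 3 were higher and 8 lower in nIPC-like cells.

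The enzymes of serine synthesis and most folate enzymes were higher in dividing progenitors than in nIPC-like cells. By edgeR, 7 of 10 genes were higher, against 19.2% of all genes tested, and 0 were lower, against 13.3%. At an unadjusted p under 0.05 the number lower was also 0, as it was by DESeq2. Phgdh had 164 and 167 CPM, against 16.6 and 16.3 CPM in nIPC-like cells (10.5-fold higher, log2 3.40 ± 0.24, adjusted p = 8.9e-12), and Mthfd2 had 78.5 and 74.7 CPM, against 5.75 and 6.78 CPM (13-fold higher, log2 3.70 ± 0.32, adjusted p = 1.2e-10). Mthfd1 was 3.66-fold (log2 1.87 ± 0.18, adjusted p = 2.1e-09), Psat1 3.87-fold (log2 1.95 ± 0.23, adjusted p = 5.8e-08) and Psph 4.58-fold higher (log2 2.20 ± 0.27, adjusted p = 2.2e-07). Shmt1 and Mthfd1l were also called, at 5.65-fold and 5.47-fold.

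Gldc was not among them, with 57.3 and 51.8 CPM in dividing progenitors and 59.8 and 54.0 CPM in nIPC-like cells (log2 0.01 ± 0.25). Shmt2 had 45.1 and 43.2 CPM in dividing progenitors and 32.5 and 30.5 CPM in nIPC-like cells (log2 0.56 ± 0.23, adjusted p = 0.062). Its call depended on the setting, as it was called higher by DESeq2, in a fit of the contrast's own classes and with Neuroblast-like cells added. Of the 20 early response genes, 9 were higher in dividing progenitors and the others were not called, against 19.2% higher and 13.3% lower over all genes.

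**Figure D3:**
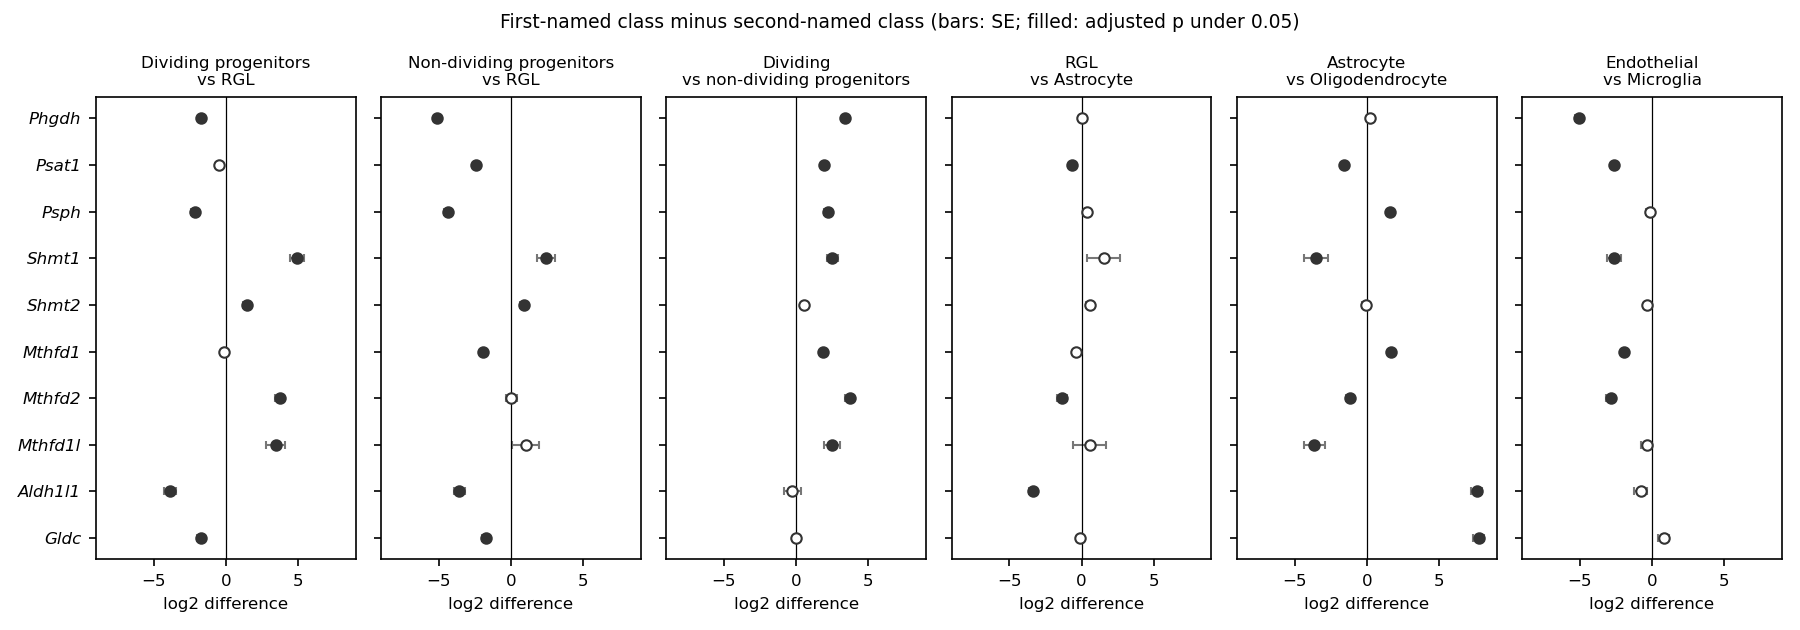
Log2 difference of each gene (rows) in 6 comparisons, as the first-named class minus the second-named class, with bars for the SE from edgeR. Filled points passed an adjusted p of 0.05, and the panel of dividing against non-dividing progenitors has 7 filled points, all to the right of 0.

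Between RGL-like cells and Astrocyte-like cells, 7 of the 10 genes were not called, and Aldh1l1 had the largest difference. Aldh1l1 had 18.2 and 22.9 CPM in RGL-like cells, against 162 and 163 CPM in Astrocyte-like cells, and was 10.4-fold lower (log2 -3.38 ± 0.27, adjusted p = 7.0e-11). Mthfd2 had 6.44 and 5.23 CPM, against 15 and 8.68 CPM (log2 -1.38 ± 0.34, adjusted p = 0.0025). Psat1 was lower by a smaller step, with 120 and 128 CPM in RGL-like cells, against 149 and 147 CPM (log2 -0.62 ± 0.21, adjusted p = 0.025). In all, 3 of 10 genes were lower, against 15% of all genes tested, and 0 were higher by edgeR, against 11.7%. At an unadjusted p under 0.05, 1 gene (Shmt2) was higher, and by DESeq2 0 were.

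Scaling matters in this comparison, because differences shifted by a mean of 0.34 (log2) over all genes when TMM was replaced by total-count scaling. The share of calls that were higher was 74.4% by total count and 43.8% by TMM. By total count Psat1 was not called (log2 -0.26), while Psph (log2 0.72) and Shmt2 (log2 0.92) were called higher. Gldc and Phgdh, which stood higher in RGL-like cells in CPM, had log2 differences of -0.10 ± 0.24 and 0.04 ± 0.20 by TMM and were not called, nor was Mthfd1 (log2 -0.39 ± 0.16, adjusted p = 0.069). RGL-like cells had 6.74% and 7.79% of UMIs from mitochondrial genes and Astrocyte-like cells 10.0% and 11%. In RGL-like cells 14 of 20 early response genes were higher and the others not called, against 11.7% higher and 15% lower over all genes. The part of these in the differences was not tested.

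Between the 2 glial classes Phgdh was not called, with 399 and 419 CPM in Astrocyte-like cells and 360 and 336 CPM in Oligodendrocyte-like cells (log2 0.20 ± 0.20, adjusted p = 0.44), while 8 of the other genes were called. Astrocyte-like cells had 145 and 157 CPM of Gldc, against 0.700 and 0.632 CPM in Oligodendrocyte-like cells (log2 7.74 ± 0.39, adjusted p = 1.6e-17), and 820 and 843 UMIs of Aldh1l1, against 7 and 5 UMIs (log2 7.62 ± 0.38, adjusted p = 7.7e-17). Mthfd1 had 37.8 and 35.7 CPM, against 11.3 and 11.2 CPM (3.17-fold higher, log2 1.66 ± 0.16, adjusted p = 8.0e-10). Psph was 3.08-fold higher (log2 1.62 ± 0.24, adjusted p = 1.4e-06).

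Psat1 ran the other way, with 149 and 147 CPM in Astrocyte-like cells, against 447 and 431 CPM in Oligodendrocyte-like cells (3.04-fold lower, log2 -1.61 ± 0.21, adjusted p = 1.2e-07). Mthfd2, Mthfd1l and Shmt1 were also lower in Astrocyte-like cells, where Mthfd1l held 3 and 0 UMIs and Shmt1 0 and 2. In all, 4 of 10 genes were higher, against 30.1% of all genes tested, and 4 were lower, against 24.5%. Median depth was 4647.5 and 5043 UMIs in Astrocyte-like cells and 23807 and 21750 UMIs in Oligodendrocyte-like cells, and of the early response genes 6 were higher and 4 lower.

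Endothelial-like and Microglia-like cells, both outside the neural lineage, differed in Phgdh more than in any other of the 10 genes. Endothelial-like cells had 2.96 and 5.44 CPM, against 129 and 102 CPM in Microglia-like cells (33.6-fold lower, log2 -5.07 ± 0.26, adjusted p = 7.3e-16). Psat1 had 2.66 and 4.47 CPM, against 19.0 and 16.3 CPM (log2 -2.61 ± 0.26, adjusted p = 3.1e-10), and Mthfd1 4.09 and 4.71 CPM, against 14.7 and 13.9 CPM (log2 -1.97 ± 0.17, adjusted p = 6.3e-11). Mthfd2 (log2 -2.86 ± 0.32, adjusted p = 4.7e-09) and Shmt1 (log2 -2.64 ± 0.50, adjusted p = 4.8e-05) were lower too. In all, 5 of 10 genes were lower, against 31.1% of all genes tested, and 0 were higher by edgeR, against 25.4%. Gldc (log2 0.81 ± 0.37) was the 1 gene higher at an unadjusted p under 0.05, and it was called higher under 6 other settings, DESeq2 among them. Gldc was scarce in both classes, with 1.43 and 3.87 CPM in Endothelial-like cells, against 1.28 and 1.09 CPM in Microglia-like cells. Its TMM-scaled log2 difference was 0.02 in library 1 and 1.38 in library 2, so the difference was seen in library 2 only. Differences shifted by a mean of 0.26 (log2) over all genes under total-count scaling, and the share of calls that were higher was 56.3% by total count and 45% by TMM. Of the 20 early response genes, 2 were higher and 15 lower in Endothelial-like cells.

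Phgdh in Microglia-like cells ranged from 77.1 to 199 CPM over 5 clusters and 2 libraries. The class as a whole, at 129 and 102 CPM, stood below the level in free RNA, which was 145 and 128 CPM in barcodes with fewer than 100 UMIs. Endothelial-like cells had 2.96 and 5.44 CPM. The 13 astrocyte markers summed to 80.2 and 98.0 CPM in Microglia-like cells, against 12255 and 12655 CPM in Astrocyte-like cells. The 10 oligodendrocyte markers summed to 203 and 293 CPM, against 112641 and 106887 CPM in Oligodendrocyte-like cells. All markers of both lists had at least 1 UMI in Microglia-like cells, and Gldc and Aldh1l1 had at most 1.79 CPM there in both libraries. The part of free RNA in the Phgdh level of Microglia-like cells was not tested. Gldc stood at 31.0 and 22.3 CPM in free RNA, above its levels in Endothelial-like and Microglia-like cells. The part of free RNA in the Gldc difference between these classes was not tested either.

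Shares of cells at equal depth gave the same order of the leading classes for Phgdh. They rest on the same UMI totals as CPM, so they are no separate evidence for that order. With each cell thinned to 1000 UMIs, 39.0% and 43.7% of RGL-like cells held a Phgdh UMI (89.0% and 92.3% without thinning), 34.0% and 34.3% of Astrocyte-like cells and 27.8% and 29.4% of Oligodendrocyte-like cells. The share was 11.4% and 10.2% in Microglia-like cells and 0.733% and 0.935% in nIPC-like cells. Endothelial-like cells, the class lowest in Phgdh, had 0.239% and 0.121% (3.11% and 3.99% without thinning). Median depths were 6820 and 6402 UMIs in RGL-like cells and 8170 and 7168 UMIs in Endothelial-like cells. For Aldh1l1 the thinned share was 15.9% of Astrocyte-like cells in both libraries, against 1.62% and 2.53% of RGL-like cells and 0% of Endothelial-like cells. Psat1 was found in 33.7% and 34.7% of thinned Oligodendrocyte-like cells and 20.3% and 18.8% of OPC-like cells, against 0.478% and 0% of Endothelial-like cells.

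**Figure D4:**
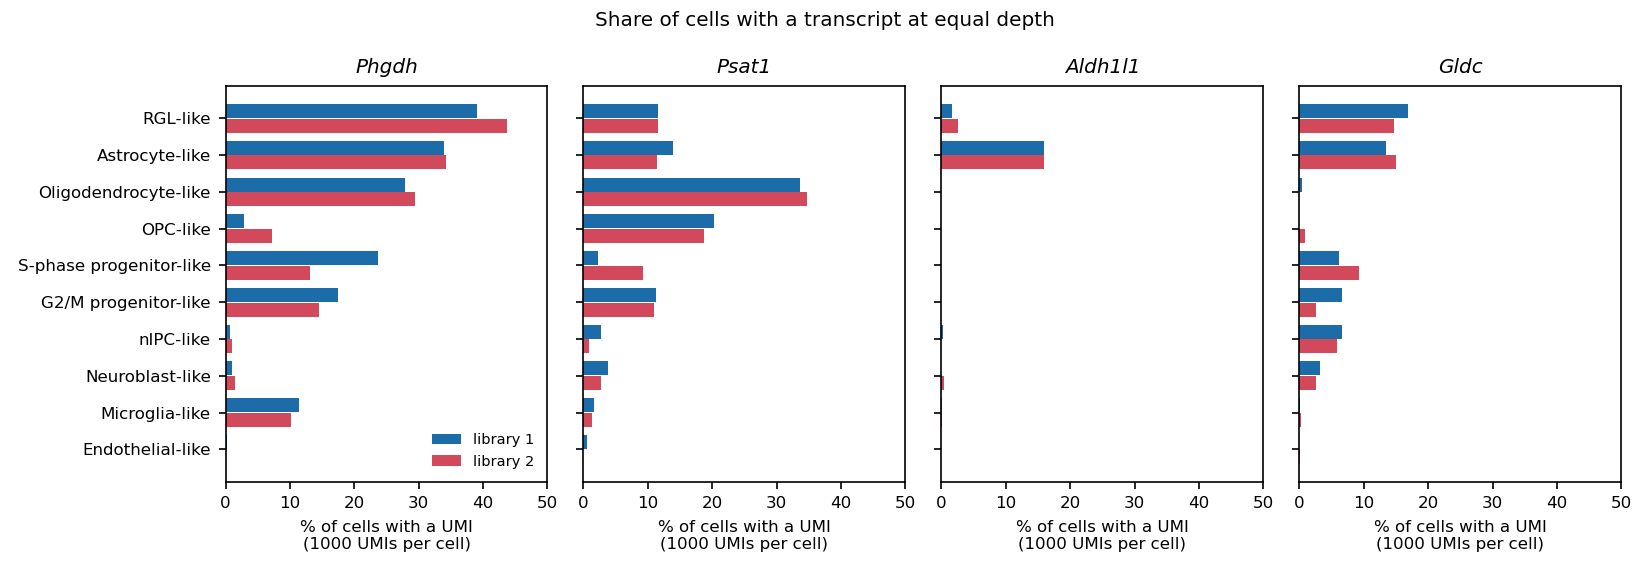
Percentage of cells with at least 1 UMI of Phgdh, Psat1, Aldh1l1 and Gldc (horizontal axis, from 0) after each cell was thinned to 1000 UMIs, in 10 classes for library 1 (blue) and library 2 (red). RGL-like cells led for Phgdh at 39.0% and 43.7%, Oligodendrocyte-like cells for Psat1 at 33.7% and 34.7%, and Astrocyte-like cells for Aldh1l1 at 15.9%.

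The 10 genes differed in how alike their patterns were. Over 36 sums (18 classes in 2 libraries, each class counted in both), log2 levels of Phgdh and Psph had a Pearson r of 0.85, Phgdh and Psat1 0.80, and Shmt1 and Shmt2 0.67. Phgdh had an r of 0.28 with Shmt1 and 0.10 with Shmt2. Of 12587 genes compared, those most like Phgdh were Padi2 (0.87), Hepacam (0.86) and Kcnj10 (0.86, a listed astrocyte marker), those most like Psat1 Scd2 (0.93), Sox2ot and Cyp51, and those most like Psph Ptch1 (0.92), Dipk1c and Pantr2. Shmt1 was most like Mcm5 (0.91), a replication helicase subunit and a listed S-phase marker, then Dll1 (0.91), a listed nIPC marker, and Atad5 (0.91). Mthfd2 was most like Cenpq (0.85), Tk1 and Ncapg2. Aldh1l1 was most like Slc39a12 (0.97), which served as an astrocyte marker here, and Gldc most like Kcnn2 (0.96). Mthfd1l was too scarce for this measure. These correlations describe classes that share libraries and depths, and no test goes with them.

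Other genes of the pathway were read from 6 lists with 78 genes in all. In dividing progenitors against RGL-like cells, 10 of 13 genes of purine and thymidylate synthesis were higher and 3 not called (list median log2 1.07, against 0.02 over all genes), where 25.2% of all genes tested were higher and 23.1% lower. Tyms, which makes thymidylate from the one-carbon unit, had 174 and 179 CPM, against 8.05 and 13.9 CPM in RGL-like cells (log2 4.01 ± 0.29, adjusted p = 3.7e-12). In the folate list as a whole, 2 of 14 tested genes were higher and 5 lower, the lower ones including the folate transporter Slc46a1 (log2 -2.47 ± 0.27). Against nIPC-like cells, dividing progenitors had 11 of 13 purine and thymidylate genes higher and 1 lower, against 19.2% and 13.3% of all genes, with Tyms at log2 3.26, Paics at 1.73 and Gart at 1.15.

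In the list of serine and glycine transport and serine use, more genes were lower than higher in both kinds of progenitor. In dividing progenitors against RGL-like cells, 9 of 17 tested genes of this list were lower and 2 higher, against 23.1% and 25.2% of all genes. In nIPC-like cells against RGL-like cells 10 were lower and 2 higher, against 25.2% and 24.8% of all genes. Slc7a10, a carrier of serine and other small amino acids, had 2.13 and 5.35 CPM in dividing progenitors, against 82.4 and 62.8 CPM in RGL-like cells (log2 -4.33 ± 0.43). Slc6a9, a glycine transporter, had 2.51 and 2.88 CPM, against 48.8 and 39.4 CPM (log2 -4.0 ± 0.40). Sfxn1, a mitochondrial serine carrier, had 71.8 and 69.9 CPM in dividing progenitors, against 216 and 249 CPM in RGL-like cells (log2 -1.70 ± 0.20), and 15.4 and 12.3 CPM in nIPC-like cells (log2 -4.09 ± 0.23). Of the 5 partners of Gldc in glycine cleavage and lipoylation, Amt and Gcsh were lower in nIPC-like cells than in RGL-like cells (log2 -2.78 ± 0.30 and -1.49 ± 0.17), and the other 3 were not called.

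In the list of ATF4 and its targets, 9 of 13 genes were higher and 2 lower in dividing progenitors than in RGL-like cells, against 25.2% and 23.1% of all genes. Asns, asparagine synthetase, had 25.3 and 30.0 CPM, against 0.805 and 1.01 CPM in RGL-like cells (log2 4.87 ± 0.39), while the cystine carrier gene Slc7a11 had 2.51 and 3.09 CPM, against 38.4 and 47.9 CPM (log2 -3.92 ± 0.38). None of the 10 genes was counted in that list, although several, Phgdh, Psat1 and Psph among them, are known as ATF4 targets. Of the 10 genes, 4 were higher and 4 lower in this comparison. In the methionine and transsulfuration list, 2 of 11 tested genes were higher, a share near that over all genes, and 5 lower, with Cbs at 44.9 and 36.4 CPM in dividing progenitors, against 175 and 155 CPM in RGL-like cells (log2 -2.01 ± 0.24).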

How the data were processed

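Per the submitters' processing notes, the tools named for the series were Cell Ranger 4.0.0 and Scanpy 1.7.0, with the build mm10. The deposited matrix holds raw UMI counts of 32285 genes in 13589760 unfiltered barcodes of 2 libraries, which the labels tie to no genotype. Total counts were 102897659 and 107266420 UMIs. The sources used here do not give the strand used in counting.

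Barcodes with at least 1000 UMIs (9441 and 9533), at least 500 genes (8516 and 8891) and at most 20% mitochondrial UMIs (8255 and 8381) were kept. Scrublet, with an expected rate of 0.06, marked 230 and 260 doublets (2.79% and 3.10%), which were removed, leaving 8025 and 8121 cells. Cells were clustered without the 10 genes and the genes of the lists (2977 variable genes, 40 components, 15 neighbours, Leiden resolution 1, scanpy 1.11.5), which gave 32 clusters. A cluster was named from markers of 24 cell classes when at least 3 markers were found in at least 25% of its cells and the class had a score of at least 1. A cluster stayed unnamed where an unrelated class with a marker among the 10 leading genes reached 0.75 of the best score, and among related classes of 1 lineage the name went to the class with most markers at their highest level in that cluster, which need not be the best score. This rule was set after the clusters had been seen. Clusters left unnamed held 316 and 327 cells. A cluster of 160 cells was unnamed for an unrelated class near the best score. Shallow clusters of 267, 117 and 32 cells were unnamed because no marker of their best class was among the leading genes. A cluster of 67 cells was unnamed because its leading genes held more markers of an unrelated class.

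Counts were summed by library and class where each library had at least 20 cells. One edgeR 4.0.16 quasi-likelihood fit in R 4.3.3 (TMM, filterByExpr, library as block) covered 34 sums of 17 classes with 16 residual degrees of freedom, S-phase and G2/M progenitors entering as 1 dividing class. P-values were adjusted by Benjamini-Hochberg over all 15746 genes, and each SE was derived from the F statistic. The library block pairs classes of the same library, since both come from the same cell suspension. Poisson intervals are exact and floors use 3 counts. Likeness was Pearson's r of log2(CPM + 10) over genes with at least 500 UMIs. Promoter sequences came from RefSeq (GRCm38.p6) and gene coordinates from GENCODE vM21. The fit was tested on simulated data, with 100 genes changed by log2 1 and 100 by log2 2 in each comparison. It called 1 to 7 of the smaller and 43 to 67 of the larger changes, and 0 unchanged genes. Far fewer genes changed there than were called in the real data, which makes the adjusted threshold stricter. A gene that was not called may still differ.

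All 10 genes are described, with full statistics for up to 5 of them with the smallest adjusted p in each comparison and up to 3 genes of each of 6 pathway lists. The 10 genes and the lists were chosen with earlier results of these data known. The alternatives were total-count scaling, DESeq2 1.42.0, no count filter, only the compared classes, no library block, at most 10% mitochondrial UMIs, at least 2000 UMIs, Leiden resolution 1.5, no shallow clusters and each library left out.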

Additional observations from a re-analysis of the deposited data

Results flagged for a closer look

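For 6 of the differences between classes, the 2 libraries pointed in opposite directions, and none of them was called by edgeR. The difference between libraries was not tested. Values are differences of TMM-scaled log2 CPM, with edgeR's small prior count added, in library 1 and library 2, first-named class minus second-named class. Phgdh differed by -0.02 and 0.20 (-0.0202 and 0.1965) between Astrocyte-like and Oligodendrocyte-like cells. Gldc differed by -0.06 and 0.02 (-0.0590 and 0.0157) between dividing and non-dividing progenitors. Mthfd2 differed by -0.23 and 0.17 between non-dividing progenitors and RGL-like cells. Between Endothelial-like and Microglia-like cells, Shmt2 differed by -0.54 and 0.14, Psph by -0.38 and 0.31, and Mthfd1l by 0.01 and -0.47 (0.00583 and -0.465).

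The cells in clusters that received no name were used in no comparison. They held 172 and 223 UMIs of the 10 genes together, a summed level of 80.8 and 83.0 CPM in 316 and 327 cells, which is above the limit that a count of 0 allows.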

How the results depend on the processing

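Under the alternatives, 103 counts of called genes stayed within 1.5 times the reported count and 9 did not. With Neuroblast-like cells added to nIPC-like cells, 1 gene was higher in non-dividing progenitors than in RGL-like cells. Under total-count scaling and in a fit of only the compared classes, 2 genes (Psph and Shmt2) were higher in RGL-like than in Astrocyte-like cells. Under total-count scaling, DESeq2, no count filter, at most 10% mitochondrial UMIs, at least 2000 UMIs or no shallow clusters, 1 gene (Gldc, log2 0.87 to 1.09) was higher in Endothelial-like than in Microglia-like cells. The cause was not tested for any of these. For Gldc, the TMM-scaled log2 difference of the reported data was 0.02 in library 1 and 1.38 in library 2. No difference that was called changed direction. Over all settings, a single difference gained a call 23 times, in Psat1 (dividing progenitors against RGL-like cells), Shmt2 (dividing against non-dividing progenitors), Psph, Shmt2 and Mthfd1 (RGL-like against Astrocyte-like cells) and Gldc (Endothelial-like against Microglia-like cells), and lost it 2 times, namely Shmt2 with Neuroblast-like cells added (0.59) and Psat1 in RGL-like against Astrocyte-like cells under total-count scaling (-0.26). Psat1 was called lower in dividing progenitors than in RGL-like cells under 7 settings (-0.49 to -0.59). Leaving out 1 library gives values with no test, and it moved 26 of these values by more than their SE and the spread between libraries. These values carry a prior count that pulls differences of low genes towards 0. For Phgdh in Endothelial-like against Microglia-like cells, library 2 alone gave -4.27. Levels moved in 20 cases and not in 300, the moved ones all in RGL-like and Astrocyte-like cells, such as Phgdh at 567 and 602 CPM in RGL-like cells without mitochondrial UMIs. The reported fit pairs classes by library, and without the library block all 60 differences kept their calls. Depth limits Shmt1 and Mthfd1l most, with 575 and 456 UMIs in all classes together.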

Other observations

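Several genes of the pathway lists differed between the glial classes, by edgeR with the same adjustment. In Astrocyte-like against Oligodendrocyte-like cells, 9 of 17 genes of serine and glycine transport and use were higher and 3 lower, against 30.1% and 24.5% of all genes tested. Slc7a10 had 364 and 425 CPM in Astrocyte-like cells, against 0.140 and 2.53 CPM in Oligodendrocyte-like cells, and Sfxn1 had 139 and 165 CPM, against 0.700 and 2.27 CPM. Among the partners of Gldc, 3 of 5 were higher (Gcsh at log2 1.90, Amt at 2.37 and Dld at 0.90) and the others were not called. In the methionine and transsulfuration list 5 of 11 were higher and 2 lower, and Cbs, which opens transsulfuration from serine and homocysteine, had 199 and 179 CPM, against 0.840 and 1.01 CPM in Oligodendrocyte-like cells. In the folate list 6 of 14 were higher and 3 lower, in the purine and thymidylate list 4 of 13 were higher and 1 lower, and in the ATF4 list 4 were higher and 5 lower. The shares higher in the purine and thymidylate and ATF4 lists and the share lower in the folate list were near those over all genes. In RGL-like against Astrocyte-like cells, the amino acid carrier gene Slc38a1 was higher, with 127 and 145 CPM, against 9.10 and 12 CPM in Astrocyte-like cells, and Slc38a3 was lower, with 15.6 and 15.1 CPM, against 127 and 121 CPM. The transport list had 3 genes higher and 7 lower there, the folate list 1 and 2, and the purine and thymidylate list 3 and 1, against 11.7% higher and 15% lower over all genes.

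Outside the neural lineage, Endothelial-like and Microglia-like cells held different carriers. Slc38a5 had 182 and 198 CPM in Endothelial-like cells, against 0.321 and 0.489 CPM in Microglia-like cells, and Slc38a1 had 1.74 and 3.38 CPM, against 95.7 and 93.4 CPM. The folate transporter gene Slc46a1 had 0.613 and 0.967 CPM in Endothelial-like cells, against 47.1 and 46.2 CPM in Microglia-like cells (log2 -6.13 ± 0.28). In the folate list 3 of 14 tested genes were higher and 8 lower, in the purine and thymidylate list 2 of 13 were higher and 6 lower, and in the ATF4 list 6 were higher and 6 lower, against 25.4% higher and 31.1% lower over all genes tested. Sds, Ftcd, Dmgdh, Mat1a and Bhmt2 of these lists were too low to be tested.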
